A study of Rattus norvegicus with 8 samples.

Results

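The genes described here encode 9 acute phase and secreted defence proteins: Orm1, Hp, Lbp, Cp, Lrg1, Serpina3n, Chi3l1, Pglyrp1 and Slpi. They were picked by name, each through the transcript cluster that the array annotation gives to that gene alone, and through the cluster with the highest mean where there were several. All 9 had a cluster, among 22093 genes with one. Of these genes 15465 reached the level needed for testing, a mean log2 signal of 5.32 over all arrays, and 8 of the 9 were among them. Lrg1 lay below that level.

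Whole lungs of 8 newborn rats gave total RNA for 1-colour Affymetrix arrays, with 1 lung on each. By title, 4 lungs are controls, from pups of dams on a semi-purified diet adequate in vitamin D (1000 IU/kg), and 4 are from pups of dams whose diet had none added (0 IU/kg). Calcium (0.5%) and phosphorus (0.4%) were the same in each diet. All dams were housed free of ultraviolet light in room air at the altitude of Denver. For the group titled deficient, females with serum 25-hydroxyvitamin D below 10 ng/ml were mated with replete males. Pups were born at term without induction. Their age is given both as day 0 and as day of life 1, and nothing says which pups were littermates, so the p-values describe variation among these 8 lungs only.

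The 2 groups are called titled adequate and titled deficient, because the deposited sources disagree on which is which. All 8 log2 columns of the authors' deposited table hold the values of the same-numbered array of the opposite title, to within 5e-05. Every direction below follows the titles, and it would turn round for all genes alike under the naming of that table. The arrays had similar medians, 5.499 to 5.647 on the log2 scale. The lung origin of the RNA was visible on every array: Sftpc, the alveolar type 2 surfactant protein gene, read 19.87 and 19.86 on average in the 2 groups, and the lung transcription factor gene Nkx2-1 read 10.72 ± 0.22 (SD, n = 4) and 9.87 ± 0.13 (SD, n = 4).

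Acute phase proteins are plasma proteins whose production, chiefly by hepatocytes, changes during infection, injury or inflammation. Interleukin 6 acting through STAT3, interleukin 1 acting through NF-kappaB and C/EBP factors, and glucocorticoids are the classical inducers. Many of the genes are also active outside the liver. Lung epithelium, macrophages and neutrophils make several of the products, some of which bind microbial surfaces, carry iron or haem-containing proteins, or restrain the proteases that neutrophils release. In bulk tissue such as whole lung, more cells of a producing type and more RNA per cell cannot be told apart.

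The stretches before the start sites of 5 of these genes are shown because Orm1, Chi3l1 and Lrg1 read apart between the titled groups whereas Cp and Serpina3n did not. Lrg1 lay below the level needed for testing, so no call is made for it. The RefSeq promoter table for build GRCr8 held 6 of the 9 genes. Pglyrp1, which also read apart between the groups, was among the 6, but its stretch is not shown. Each run below is the 250 bases upstream of the annotated start, 5' to 3' on the gene's strand, and capitals mark matches to any of 5 motifs searched on both strands. The motifs were the C/EBP motif TTNNGNAA, the STAT motif TTCNNNGAA, the NF-kappaB motif (GGG, any 2 bases, TT, any base, CC), the glucocorticoid receptor motif (G, any base, ACA, any 3 bases, TGT, any base, C) and the vitamin D receptor motif (AGNTCA 2 times, parted by any 3 bases). Orm1 is at chr5:81788259-81788508 (plus strand), Chi3l1 at chr13:48193589-48193838 (plus), Lrg1 at chr9:1036932-1037181 (minus), Cp at chr2:104368420-104368669 (plus) and Serpina3n at chr6:129088142-129088391 (plus).
Orm1: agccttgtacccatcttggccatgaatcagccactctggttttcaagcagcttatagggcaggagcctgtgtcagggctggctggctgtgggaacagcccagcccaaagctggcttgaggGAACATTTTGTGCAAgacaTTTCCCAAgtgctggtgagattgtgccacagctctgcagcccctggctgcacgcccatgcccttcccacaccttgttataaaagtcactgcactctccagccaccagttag
Chi3l1: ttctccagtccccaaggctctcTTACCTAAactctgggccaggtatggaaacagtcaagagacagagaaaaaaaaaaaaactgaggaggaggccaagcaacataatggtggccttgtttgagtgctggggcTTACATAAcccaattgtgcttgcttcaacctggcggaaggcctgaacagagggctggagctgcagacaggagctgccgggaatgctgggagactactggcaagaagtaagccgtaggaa
Lrg1: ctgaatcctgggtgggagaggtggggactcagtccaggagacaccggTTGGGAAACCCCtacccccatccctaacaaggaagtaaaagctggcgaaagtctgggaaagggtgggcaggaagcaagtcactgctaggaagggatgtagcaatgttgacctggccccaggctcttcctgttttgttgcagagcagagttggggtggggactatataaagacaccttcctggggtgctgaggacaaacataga
Cp: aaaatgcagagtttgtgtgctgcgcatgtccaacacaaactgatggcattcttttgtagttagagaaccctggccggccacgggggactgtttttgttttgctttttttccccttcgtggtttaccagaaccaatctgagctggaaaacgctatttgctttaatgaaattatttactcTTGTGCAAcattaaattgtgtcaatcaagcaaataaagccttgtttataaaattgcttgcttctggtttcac
Serpina3n: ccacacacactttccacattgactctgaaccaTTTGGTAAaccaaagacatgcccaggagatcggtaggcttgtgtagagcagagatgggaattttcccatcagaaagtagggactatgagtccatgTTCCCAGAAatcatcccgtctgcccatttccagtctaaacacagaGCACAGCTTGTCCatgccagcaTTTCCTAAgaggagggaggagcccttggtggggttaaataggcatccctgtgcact
Among all 33469 promoters of that length, 37.2% held the C/EBP motif, 7.67% the STAT motif, 4.36% the NF-kappaB motif, 0.373% the glucocorticoid receptor motif and 0.0598% the vitamin D receptor motif. Orm1 held the C/EBP motif at 2 places, and one of them, TTGTGCAA, overlapped its glucocorticoid receptor match GAACATTTTGTGC. The same 8 letters, TTGTGCAA, stood 72 to 65 bases before the start of Cp. Serpina3n held matches to the C/EBP, STAT and glucocorticoid receptor motifs, Lrg1 overlapping matches to the C/EBP and NF-kappaB motifs, and Chi3l1 the C/EBP motif at 2 places. The stretch before Pglyrp1 held none of the 5 motifs, and no gene of the 6 held the vitamin D receptor motif. Motif matches were thus present before genes that differed between the groups and before genes that did not. A match is a run of letters and not a measured binding site.

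Of the 8 genes tested, 6 were higher in the lungs titled adequate: Orm1, Chi3l1, Lbp, Pglyrp1, Hp and Slpi. None was higher in titled deficient. In all 6 the 4 lungs of titled adequate lay above the 4 of titled deficient, and the differences ran from 1.95-fold for Slpi to 15.9-fold for Orm1. Over all genes tested, 13.7% were higher in titled adequate at an adjusted p below 0.05 (limma, Benjamini-Hochberg over all genes) and 21.9% passed in either direction. Titled adequate lungs all lay above titled deficient lungs in 16.7% of genes, and the groups were apart in either direction in 28.0%. Of the 6 genes, 5 were at least 2-fold higher, as were 1.74% of all genes tested. The median log2 difference of the 8 genes was 1.26, against 0.018 for all genes tested. The genes were listed with earlier results of these arrays known, so neither count is independent evidence.

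**Figure D1:**
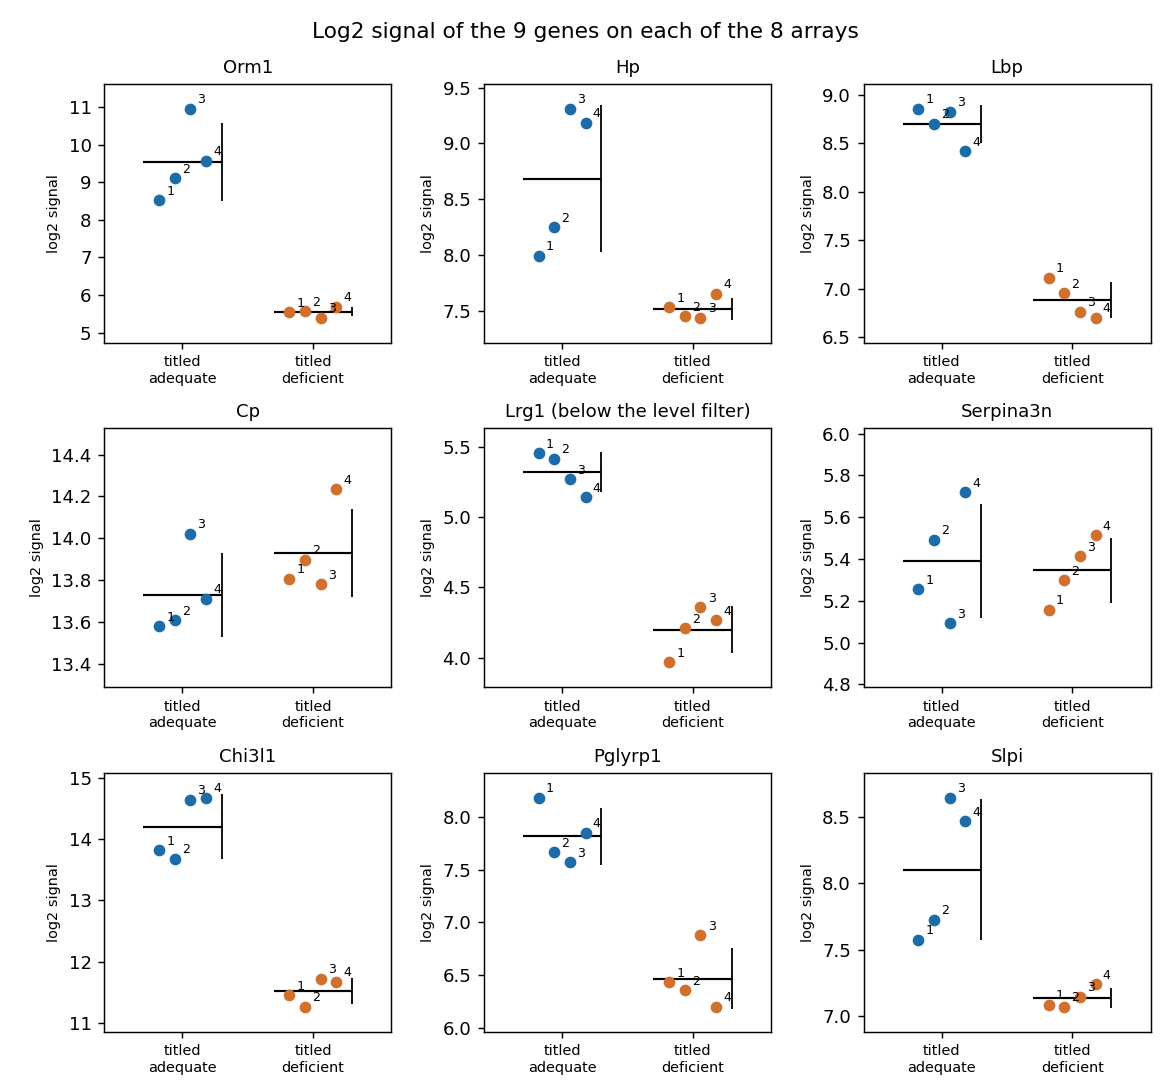
Log2 signal (vertical axis) of each of the 9 genes on each array, with titled adequate lungs in blue and titled deficient lungs in orange. Numbers beside points are replicate numbers, horizontal bars are group means and vertical bars are 1 SD on either side (n = 4). The groups are separate for Orm1, Hp, Lbp, Lrg1, Chi3l1, Pglyrp1 and Slpi and overlap for Cp and Serpina3n.

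Orm1, Hp and Cp encode plasma proteins that carry small molecules, haemoglobin or copper, and the groups compared differently for each. The Orm1 product, alpha-1-acid glycoprotein, is a plasma carrier of small lipophilic molecules and a classical acute phase protein. Lungs 1 to 4 of titled adequate read 8.52, 9.11, 10.96 and 9.58 on the log2 scale, and lungs 1 to 4 of titled deficient read 5.54, 5.57, 5.40 and 5.69. The lowest lung titled adequate stood 2.83 log2 units above the highest lung titled deficient, and the spread within titled adequate was wide while that within titled deficient was narrow. Group means differed by 3.99 on the log2 scale, or 15.9-fold (SE 0.42, adjusted p = 0.000421), the rank 8 largest toward titled adequate among the 15465 genes. The signals in titled deficient lay just above the level needed for testing, where arrays resolve differences less well, and how far that moved the fold was not tested.

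Hp encodes haptoglobin, which binds haemoglobin set free from red cells. Lung by lung, the log2 signals were 7.99, 8.25, 9.31 and 9.18 on titled adequate 1 to 4 and 7.53, 7.45, 7.44 and 7.65 on titled deficient 1 to 4. Titled adequate 3 and 4 read clearly higher than 1 and 2, and the gap between the groups was 0.34. The groups differed by 1.17 on the log2 scale, or 2.25-fold (SE 0.27, adjusted p = 0.0157). Without titled adequate 3 and 4 it was 0.60 (adjusted p = 0.0108) from the remaining 2 lungs of the group.

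Cp encodes ceruloplasmin, the copper-carrying ferroxidase of plasma. Its log2 signals were 13.58, 13.61, 14.02 and 13.71 on titled adequate 1 to 4 and 13.81, 13.90, 13.78 and 14.24 on titled deficient 1 to 4. The groups overlapped, with the highest value on titled deficient 4. Its log2 difference was -0.20 (SE 0.14, adjusted p = 0.315), and it ran from -0.30 to -0.10 when 1 lung at a time was left out. Signals were strong in every lung, so a low signal was not the limit on this comparison.

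Lbp and Pglyrp1 encode secreted proteins that bind bacterial surface molecules. The Lbp product, lipopolysaccharide binding protein, hands bacterial lipopolysaccharide to CD14 and so to the receptor TLR4. The log2 signals of Lbp were 8.86, 8.70, 8.83 and 8.42 on titled adequate 1 to 4 and 7.12, 6.96, 6.76 and 6.70 on titled deficient 1 to 4. Both groups were tight, with SDs of 0.20 and 0.19, and stood 1.30 apart at their nearest. Titled adequate was higher by 1.82 on the log2 scale, or 3.52-fold (SE 0.13, adjusted p = 4.56e-05). Of the 6 genes that passed, Lbp had the smallest p.

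Pglyrp1 encodes peptidoglycan recognition protein 1, which binds bacterial cell wall and is stored in neutrophil granules. Its log2 signals were 8.18, 7.66, 7.57 and 7.85 on titled adequate 1 to 4 and 6.43, 6.36, 6.87 and 6.20 on titled deficient 1 to 4. The highest lung was titled adequate 1, not titled adequate 3 or 4. Pglyrp1 was higher in titled adequate by 1.35 on the log2 scale, or 2.55-fold (SE 0.17, adjusted p = 0.00108). Of its relatives, Pglyrp3 had a log2 difference of -0.06 (adjusted p = 0.695), and Pglyrp2 and Pglyrp4 lay below the level needed for testing, with group means of 4.84 and 4.79 and of 5.02 and 5.07.

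Chi3l1 encodes a chitinase-like glycoprotein that binds chitin without cutting it and is made by macrophages, neutrophils and epithelium. Its log2 signals were 13.82, 13.68, 14.64 and 14.68 on titled adequate 1 to 4 and 11.46, 11.27, 11.72 and 11.68 on titled deficient 1 to 4. The groups stood 1.96 apart at their nearest, and every lung gave a strong signal. Chi3l1 was higher in titled adequate by 2.67 on the log2 scale, or 6.38-fold (SE 0.24, adjusted p = 0.000186). Of its relatives, Chia, the gene of acidic chitinase, was 4.36-fold higher in titled adequate (adjusted p = 0.00886), while Chit1 had a log2 difference of 0.16 (adjusted p = 0.118).

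Of the protease inhibitor genes, Slpi differed between the groups and Serpina3n did not pass. Slpi encodes secretory leukocyte peptidase inhibitor, an airway inhibitor of neutrophil elastase and cathepsin G. The log2 signals of Slpi were 7.57, 7.72, 8.64 and 8.47 on titled adequate 1 to 4 and 7.08, 7.07, 7.15 and 7.24 on titled deficient 1 to 4. As for Hp, titled adequate 3 and 4 were the high lungs, and titled adequate 1 and 2 stood only a little above the other group. Slpi was higher in titled adequate by 0.97 on the log2 scale, or 1.95-fold (SE 0.22, adjusted p = 0.0147), and by 0.51 without titled adequate 3 and 4 (adjusted p = 0.0105).

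Serpina3n encodes a serpin that inhibits granzyme B and cathepsin G in the mouse. The log2 signals of Serpina3n were 5.26, 5.49, 5.09 and 5.72 on titled adequate 1 to 4 and 5.16, 5.30, 5.41 and 5.51 on titled deficient 1 to 4. The groups overlapped throughout, and all signals were near the level needed for testing. The log2 difference was 0.04 (SE 0.13, adjusted p = 0.833). A second transcript cluster of the gene gave -0.09 (5.20 against 5.29). Serpina3n belongs to a family of close copies that probes may not separate, and its low signal limits what could be seen.

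Lrg1 encodes leucine-rich alpha-2-glycoprotein, which in the mouse binds TGF-beta and the endothelial receptor endoglin. Its log2 signals were 5.45, 5.42, 5.27 and 5.14 on titled adequate 1 to 4 and 3.97, 4.21, 4.36 and 4.27 on titled deficient 1 to 4. The groups were 0.79 apart at their nearest, but the mean over all lungs missed the level needed for testing and no call is made. In the fit with no such level it had a log2 difference of 1.12 (SE 0.10, adjusted p = 0.000215). No fold is given from this fit, since antigenomic background probes, which match no rat sequence, had medians of 3.37 to 3.54 per array and the titled deficient signals were not far above them.

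**Figure D2:**
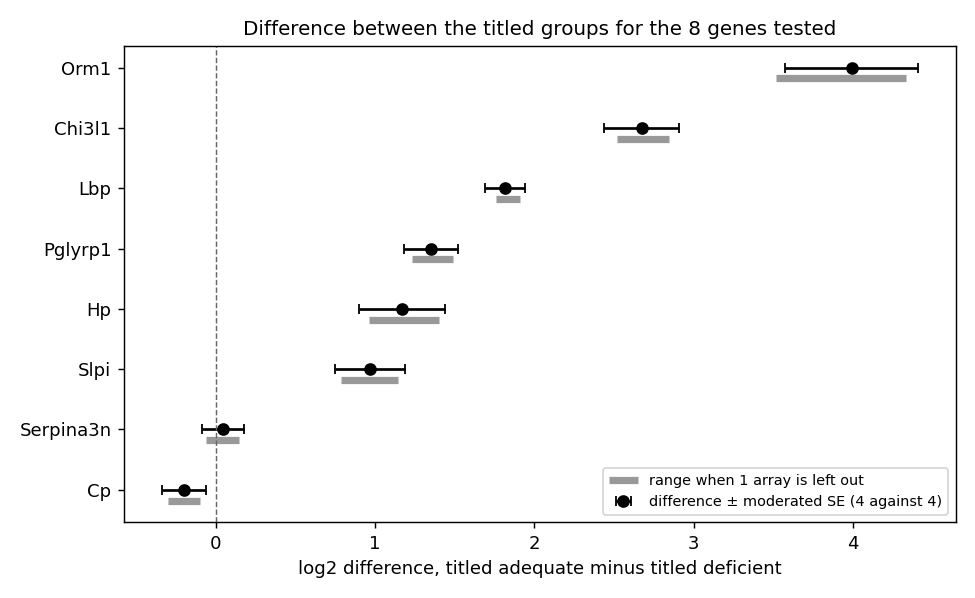
Log2 difference between the titled groups (horizontal axis, titled adequate minus titled deficient) for the 8 genes tested. Black points with bars are the difference with its moderated SE (4 against 4), and grey bars are the range when 1 array at a time is left out. The grey bars of Orm1, Chi3l1, Lbp, Pglyrp1, Hp and Slpi stay above 0, whereas that of Serpina3n spans 0.

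The 6 genes kept their direction and their adjusted p below 0.05 in each of the 8 fits that left out 1 lung. Adjusted p-values in these fits reached 0.0422 for Hp and 0.0406 for Slpi, both without titled deficient 2, and stayed at or below 0.00553 for Orm1, Lbp, Chi3l1 and Pglyrp1. The authors' deposited table lists 7 of the 9 genes and omits Cp and Serpina3n. Its signed folds, written there as deficient over control, are 19.56 for Orm1, 6.647 for Chi3l1, 3.523 for Lbp, 2.545 for Pglyrp1, 2.42 for Hp, 2.17 for Lrg1 and 2.053 for Slpi in the authors' deposited table. For these genes they equal the ratio of linear group means, titled adequate over titled deficient, and for Orm1, whose titled adequate lungs were widely spread, that ratio is larger than the fold of log2 means. The fold for Lrg1 rests on titled deficient signals not far above background.

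Within the lungs titled adequate the genes followed different orders. Orm1, Hp and Slpi read highest on titled adequate 3, and Chi3l1 on titled adequate 4 with titled adequate 3 close by. Lbp, Lrg1 and Pglyrp1 read highest on titled adequate 1. Of the 29 other acute phase genes with a signal, 17 read highest on titled adequate 3 or 4, and so did 15 of 27 other secreted defence genes. Among the 19 neutrophil markers, 7 read highest on titled adequate 3 or 4 and 7 on titled adequate 1. Of the 29, 27 and 19 genes of these lists, 12, 9 and 5 lay below the level needed for testing. The share of all genes that read highest on these lungs was not counted.

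**Figure D3:**
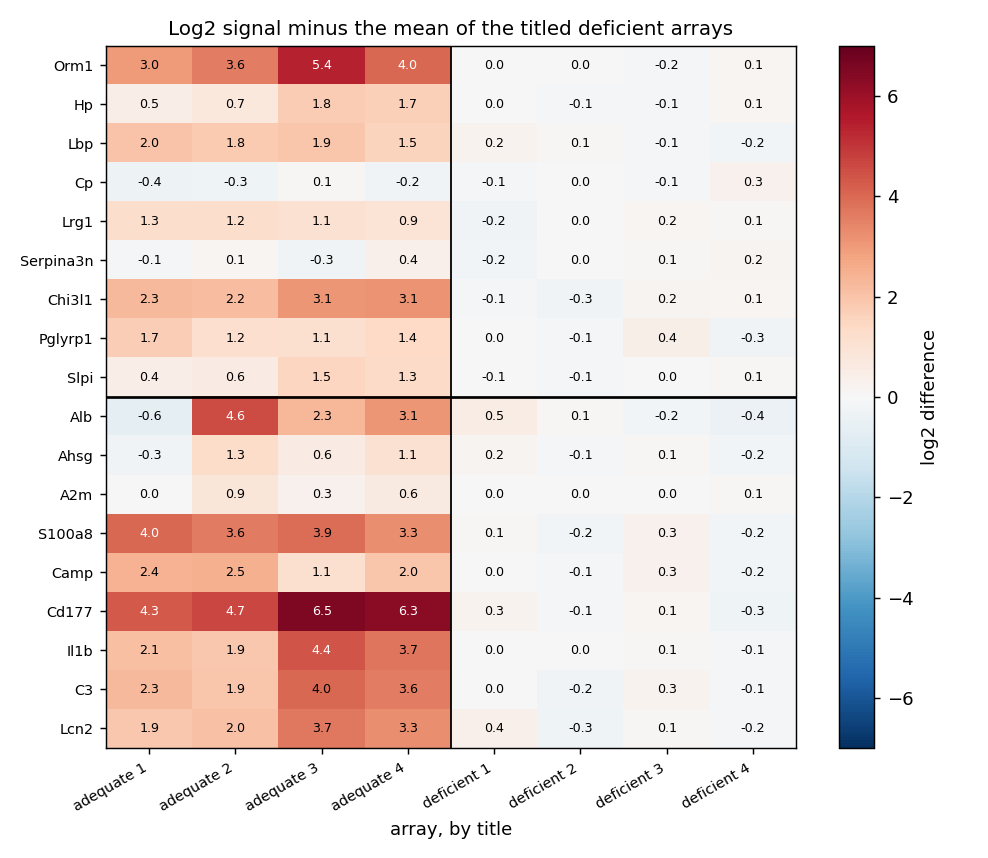
Log2 signal on each array minus the mean of the 4 titled deficient arrays, for the 9 genes (above the line) and 9 genes of the companion lists (below it). Columns are arrays by title and colour runs from blue (lower) to red (higher). Hp, Slpi, Il1b, C3 and Lcn2 are highest on titled adequate 3 and 4, whereas the liver gene Alb is high on titled adequate 2 to 4 and not on titled adequate 1.

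The molecules that these proteins act on or with were partly higher and partly lower. Of 15 tested genes for partners and substrates, 9 did not pass, 4 were higher in titled adequate and the other 2 in titled deficient (8.24% of all genes tested were higher in titled deficient), with a median log2 difference of -0.01. Cd163, the macrophage receptor that takes up haptoglobin with its haemoglobin, was 1.95-fold higher in titled adequate (SE 0.14 on the log2 scale, adjusted p = 0.00202). Trem1, a receptor of myeloid cells reported to bind the Pglyrp1 product, was 2.31-fold higher (adjusted p = 0.0154). The Lbp partner Cd14 was 2.18-fold higher (adjusted p = 0.0268) with groups that overlapped, while Tlr4 was 1.36-fold higher in titled deficient (adjusted p = 0.0339), and Ly96 had a log2 difference of -0.04 (adjusted p = 0.818). The scavenger receptor gene Lrp1 was 1.54-fold higher in titled adequate (adjusted p = 0.0446) and the iron exporter gene Slc40a1, whose product works with ceruloplasmin, 1.42-fold higher in titled deficient (adjusted p = 0.0448). Cd14, Tlr4, Lrp1 and Slc40a1 each missed the threshold in 5 or 6 of the 8 fits that left out 1 lung, and the number higher in titled adequate was 2 without titled deficient 2, 3 or 4. Heph, a ferroxidase related to ceruloplasmin, had a log2 difference of -0.01 (adjusted p = 0.947). Eng, which encodes endoglin, had one of -0.77 (adjusted p = 0.0807) and passed without titled adequate 2 (adjusted p = 0.0442). Of the proteases that Slpi restrains, Elane, the neutrophil elastase gene, had group means of 5.65 and 5.38 (adjusted p = 0.095), and Ctsg, the cathepsin G gene, lay below the level needed for testing.

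Of 17 other acute phase genes tested, 9 were higher in titled adequate, none in titled deficient and 8 did not pass, with a median log2 difference of 0.94. The shares over all genes tested were 13.7% higher in titled adequate and 8.24% higher in titled deficient. C3, the central complement component, was 7.72-fold higher (2.95 on the log2 scale with an SE of 0.41, adjusted p = 0.00169). Fgg, the fibrinogen gamma chain, was 3.29-fold higher (adjusted p = 0.00208). Fgb, another chain gene, had a log2 difference of 0.21 (adjusted p = 0.363) and passed without titled adequate 1 (0.38, adjusted p = 0.038), and Fga lay below the level needed for testing. Il1rn, the interleukin 1 receptor antagonist, was 2.76-fold higher (adjusted p = 0.00492), Kng2, a kininogen with close copies in the rat, 2.77-fold (adjusted p = 0.00875) and C4bpa, a complement inhibitor, 2.39-fold (adjusted p = 0.0109). The metallothionein gene Mt1 was 3.61-fold higher (adjusted p = 0.0139) and passed in each of the 8 fits that left out 1 lung. It missed the threshold without titled adequate 3 and 4 (adjusted p = 0.0741). Its relative Mt2A was 2.43-fold higher (adjusted p = 0.0281) but passed in only 3 of those 8 fits. Among those that did not pass, Timp1 had a log2 difference of -0.23 (adjusted p = 0.319). A2m, the main acute phase protein gene of rat liver, had one of 0.45 (adjusted p = 0.0697) and passed without titled adequate 1 (adjusted p = 0.0108). The titled deficient mean of A2m (5.15) lay below the level needed for testing, so A2m entered the test only through titled adequate. Crp and Hpx lay below the level needed for testing.

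Of 18 other secreted defence genes tested, 7 were higher in titled adequate, none in titled deficient and 11 did not pass, with a median log2 difference of 0.76. For all genes tested the shares were 13.7% higher in titled adequate and 8.24% higher in titled deficient. Pigr, the receptor that carries immunoglobulin A across epithelium, was 7.76-fold higher (2.96 on the log2 scale with an SE of 0.55, adjusted p = 0.0064), with log2 signals of 7.43, 8.05, 10.59 and 9.20 on titled adequate 1 to 4 against 5.74 to 5.96 in titled deficient. Serpinb1a, counted in this list although its product is an intracellular inhibitor of neutrophil proteases, was 7.30-fold higher (adjusted p = 6.79e-05). Lcn2, the siderophore-binding lipocalin, was 6.62-fold higher (adjusted p = 0.00185). The cathelicidin gene Camp was 4.01-fold higher (adjusted p = 0.00141), the beta-defensin gene Defb4 1.79-fold (adjusted p = 0.02) and the collectin gene Sftpd 1.61-fold higher (adjusted p = 0.00618). Defb4 missed the threshold without titled adequate 4 (adjusted p = 0.0521). The mucin gene Muc5b differed by 1.93 on the log2 scale with overlapping groups (SE 1.14, adjusted p = 0.245), and Ltf and Bpi lay below the level needed for testing.

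Of 20 genes of the inducing cytokine pathways tested, 8 were higher in titled adequate, 2 in titled deficient and 10 did not pass, with a median log2 difference of 0.26. Ligands of the interleukin 1 branch were higher in titled adequate, Il1b 8.15-fold (adjusted p = 0.00356) and Il1a 4.32-fold (adjusted p = 0.00481). Their signalling receptor gene Il1r1 was 2.28-fold higher in titled deficient (log2 difference -1.19, SE 0.09, adjusted p = 9.12e-05), with no overlap between the groups. The oncostatin M gene Osm had a log2 difference of 0.09 (adjusted p = 0.271), and the ligand genes Lif and Tnf lay below the level needed for testing. Tnf read 4.924, 5.015, 5.944 and 5.946 on titled adequate 1 to 4 against 4.169 to 4.575 in titled deficient. No call is made for it. Il6 also lay below the level needed for testing, at 4.33 ± 0.08 (SD, n = 4) and 4.15 ± 0.06 (SD, n = 4). Its receptor gene Il6r was 1.55-fold higher in titled adequate (adjusted p = 0.0108), while Il6st, the shared signalling chain, had a log2 difference of 0.02 (adjusted p = 0.896) and Stat3 one of 0.01 (adjusted p = 0.972). Among the factors that act on acute phase promoters, Cebpd was 3.09-fold (adjusted p = 0.00214), Nfkbiz 3.23-fold (adjusted p = 9.37e-05) and Cebpb 1.48-fold higher (adjusted p = 0.00536). Cebpa (log2 difference 0.39, adjusted p = 0.276), Nfkb1 (0.23, adjusted p = 0.0844), Rela (0.14, adjusted p = 0.337) and the glucocorticoid receptor gene Nr3c1 (0.29, adjusted p = 0.0824) did not pass, although Nr3c1 did without titled deficient 4 (adjusted p = 0.0457). Socs3, the feedback inhibitor of STAT3 signalling, was 2.19-fold higher (adjusted p = 0.00583). Osmr, the oncostatin M receptor gene, was 1.55-fold higher in titled deficient (adjusted p = 0.0225) and missed the threshold without titled adequate 2 or titled deficient 3 (adjusted p = 0.0523 to 0.0543).

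**Figure D4:**
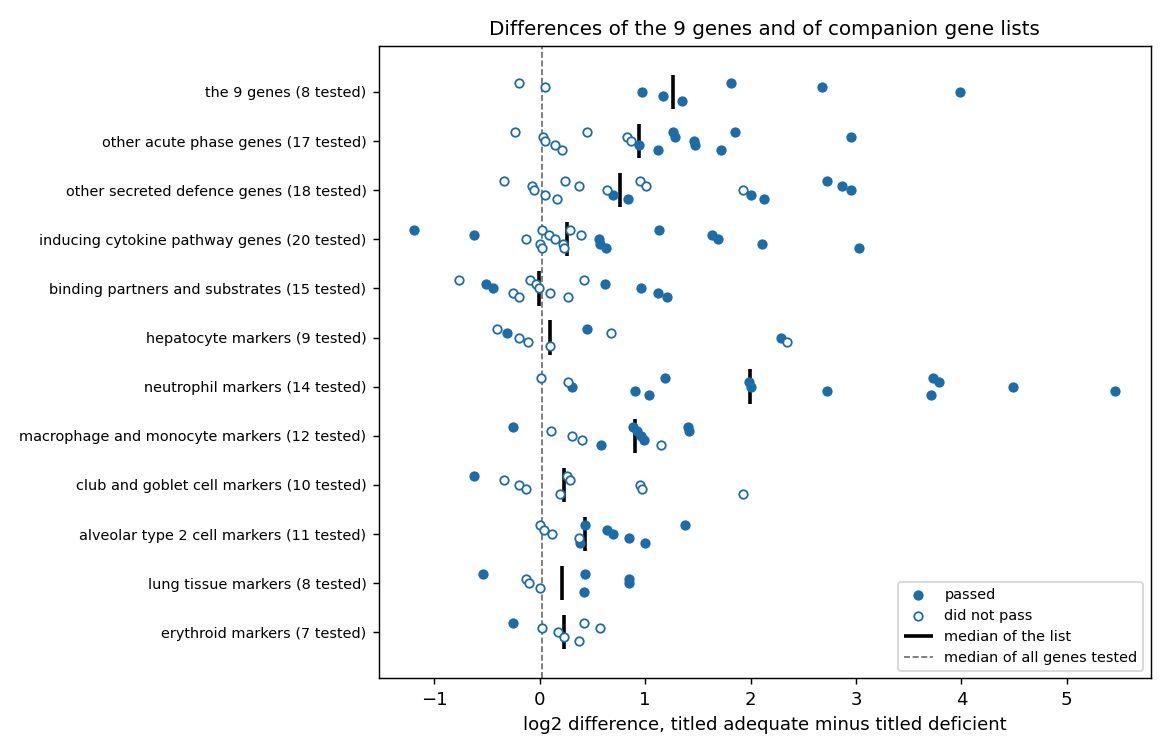
Log2 difference between the titled groups (horizontal axis, titled adequate minus titled deficient) for each gene tested in the set of 9 genes and in the companion lists. Filled points passed an adjusted p of 0.05, open points did not, thick bars are list medians and the dashed line is the median of all genes tested (0.018). The set of 9, the other acute phase genes, the other secreted defence genes, the neutrophil markers and the macrophage markers have medians between 0.76 and 2.00.

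Markers of cells that could supply these transcripts differed between the groups to different degrees. The counts below stand beside 13.7% of all genes tested that were higher in titled adequate and 8.24% that were higher in titled deficient. Of 14 neutrophil markers tested, 12 were higher in titled adequate and none in titled deficient. When only genes above percentile 50 of the level (log2 6.69) were tested, 7 were higher. Fewer than 14 markers entered that test, so the 7 are not out of 14. Of the 12, Mpo, Mmp9, Cxcr2 and Padi4 had titled deficient means below the level needed for testing and entered the test only through titled adequate, and among the 10 markers at that level in both groups 8 were higher in titled adequate. S100a8, a calprotectin subunit, read 10.60, 10.20, 10.50 and 9.83 on titled adequate 1 to 4 against 6.39 to 6.88 in titled deficient. The mean log2 level over 19 neutrophil markers lay between 7.57 and 7.92 per lung in titled adequate and between 5.86 and 6.16 in titled deficient. The granule genes Ltf, Ctsg and Prtn3 lay below the level needed for testing in both groups, and Ngp had a log2 difference of 0.02 (adjusted p = 0.964). Of 12 macrophage and monocyte markers tested, 7 were higher in titled adequate and 1, Marco, was higher in titled deficient. Marco passed in only 1 of the 8 fits that left out 1 lung (adjusted p = 0.052 to 0.0871 in the other 7). Of 11 alveolar type 2 cell markers tested, 7 were higher in titled adequate, among them the phospholipid enzyme gene Lpcat1 by 1.38 on the log2 scale (adjusted p = 0.00166). Of 10 club and goblet cell markers tested, none was higher in titled adequate and 1, Aldh1a1, was higher in titled deficient, and Scgb1a1 had a log2 difference of -0.13 (adjusted p = 0.358). Aldh1a1 passed in 2 of the 8 fits that left out 1 lung (adjusted p = 0.0514 to 0.0739 in the other 6) and did not pass without titled adequate 3 and 4 (adjusted p = 0.164). Of 7 erythroid genes tested, none was higher in titled adequate and 1, Tspo2, was lower there (log2 difference -0.26, adjusted p = 0.0259), a call that held in 4 of the 8 fits. Of 8 general lung genes, 4 were higher in titled adequate, or 2 without titled adequate 1, titled adequate 2, titled deficient 1 or titled deficient 2, and the endothelial cadherin gene Cdh5 was lower there (log2 difference -0.54, adjusted p = 0.0123). Lists overlap: 6 of the 19 neutrophil markers, 9 of the 28 other secreted defence genes and 4 of the 11 alveolar type 2 cell markers also stand in another list. The part of these cells in the values of the 9 genes was not tested.

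Hepatocyte markers were examined because the liver is the main source of the plasma acute phase proteins in this set. Of 17 with a signal, 8 lay below the level needed for testing. Of 9 tested, 2 were higher in titled adequate (Fetub and Cyp2e1) and 1 in titled deficient (Apoa2), with a median log2 difference of 0.10. Apoa2, whose mean in titled adequate lay below the level needed for testing, passed in 3 of the 8 fits that left out 1 lung (adjusted p = 0.0504 to 0.0828 in the other 5). The number higher in titled adequate was 4 without titled adequate 1. The albumin gene Alb read 5.69, 10.90, 8.64 and 9.38 on titled adequate 1 to 4 and 6.81, 6.39, 6.14 and 5.90 on titled deficient 1 to 4. It was thus high on titled adequate 2, 3 and 4 and lowest of all on titled adequate 1. Ahsg, the fetuin A gene, followed the same order (4.86, 6.43, 5.72 and 6.17 against 4.91 to 5.29). So did A2m, of the other acute phase genes (5.13, 6.02, 5.47 and 5.78 against 5.11 to 5.21). Fetub did not, at 14.45, 14.40, 15.00 and 14.67 on titled adequate 1 to 4 against 12.16 to 12.71. Apoa1, Ttr and Cps1 had log2 differences of -0.11, -0.19 and -0.41 and Rbp4 one of 0.10, and none of them passed. Of the 17 markers, 7 read highest on titled adequate 2, among them Apob, Apoh and F2, which lay below the level needed for testing. Cyp2e1 did so by very little (6.282 against 6.281 on titled adequate 1), and the share over all genes was not counted. Neither Alb (log2 difference 2.34, SE 0.87, adjusted p = 0.0808) nor Ahsg (0.67, SE 0.28, adjusted p = 0.112) passed over all lungs, and both passed without titled adequate 1 (adjusted p = 0.00321 and 0.00618). The titled deficient mean of Ahsg (5.12) lay below the level needed for testing, so Ahsg entered the test only through titled adequate. On titled adequate 1 Alb read below every titled deficient lung. Orm1, Hp, Lbp, Lrg1, Chi3l1, Pglyrp1 and Slpi read above every titled deficient lung there, as on each titled adequate lung. That is the separation of the groups given above and no further result, and no call is made for Lrg1. Without titled adequate 2, the lung with the highest Alb, the 6 genes passed, but that fit kept titled adequate 3 and 4, with Alb at 8.64 and 9.38. Whether liver RNA had a part in any of these values was not tested.

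Variation between lungs was compared with the mean profile of the 9 genes, after each group was centred on its own mean. Genes with provisional symbols (LOC, RGD, AABR or MGC with a number) were left out. The 6 most alike of the others were Klf2, Endod1, Retnla, C5, Abcc5 and Ctps1. The Pearson correlation with the mean profile of the 9 genes over 8 arrays ran from 0.977 for Ctps1 to 0.99 for Klf2. It is a description that rests on few lungs, chiefly on the high readings of titled adequate 3 and 4. Lbp, Lrg1 and Pglyrp1, highest on titled adequate 1, did not follow that profile. Retnla, which encodes a resistin-like secreted protein, read 5.95, 6.27, 8.97 and 8.21 on titled adequate 1 to 4. Of the 6, Klf2, a transcription factor gene (log2 difference 1.34, adjusted p = 0.00947), and Abcc5, a transporter gene (0.70, adjusted p = 0.0066), were higher in titled adequate. The remaining 4 did not pass, with adjusted p-values of 0.0687 for Endod1, 0.0551 for Retnla, 0.127 for C5 and 0.538 for Ctps1, although Endod1 and Retnla did without titled adequate 1 or titled adequate 2 (adjusted p = 0.026 to 0.0446).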

How the data were processed

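RNA of 8 newborn rat lungs was measured on 1-colour arrays. The deposited values are log2 signals per transcript cluster, which the authors obtained by SST-RMA in Expression Console, per the submitters' processing notes. That method removes background, equalises the arrays and rescales signals, so a fold depends on its scale. Software version and build: not given in the sources used here. A second table, from the authors, holds a signed fold score, used only as printed.

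Of 70580 rows, 1738 control rows were left out. Of 68842 transcript clusters, 23446 had 1 gene symbol, 505 several and 44891 none. Each gene was taken through its cluster with the highest mean, and genes below percentile 30 of such means (log2 5.32) were not tested. The 15465 others entered a linear model (limma 3.58.1, R 4.3.3; eBayes with a trend, no covariate, 2-sided, Benjamini-Hochberg, threshold 0.05). Errors are moderated standard errors. With 4 arrays a group, that number limits the precision. In simulated data of these 15465 genes, 60% of genes changed 1.5-fold and 86% of those changed 2-fold were recovered, with 7 false calls. There the genes varied independently and far fewer were changed than were called here, so recovery in the real data may differ.

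The 9 genes, companion lists and motifs were chosen with earlier results of these data known, and 2 alternatives (marked as added) after the data were seen. Named were the 9 genes, genes of the companion lists (of the inducing pathway and cell marker lists up to 4 with the smallest p, and others chosen after their values were seen), and the 6 genes most alike in variation. Same-numbered lungs of the groups were not treated as pairs (correlations of their deviations were -0.171, 0.044, -0.353 and -0.28).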

Additional observations from a re-analysis of the deposited data

Results flagged for a closer look

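No lung stood far from the other 3 of its group for any of the 9 genes. Among 101 genes screened (202 groups of 4), the gap of the most extreme lung to its nearest neighbour exceeded Dixon's critical value for 4 values in 7, and chance flags about 1 in 20 groups. On titled adequate 3, Nfkbiz read 9.72 against 9.14 to 9.19 on the other 3 lungs of the group, and Il1r1 read 10.02 against 9.76 to 9.81. On the same lung the hepatocyte markers Cyp2e1 and Apoa2 read 5.89 against 6.25 to 6.28, and 5.07 against 5.37 to 5.41. Crp read 3.75 on titled adequate 4 against 3.53 to 3.56, below the level needed for testing. In titled deficient, Marco read 6.19 on lung 3 against 5.95 to 5.98, and Sftpb 18.67 on lung 2 against 18.63 to 18.64.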

How the results depend on the processing

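Under 19 alternatives (17 planned and 2 added after the data were seen) the 6 genes called kept sign and call in all 108 values, which could be had for each gene under 18 of them. Without a level filter 7 of the 9 genes passed, Lrg1 being the addition. For Serpina3n, not called under any, the log2 difference (0.04) turned to -0.0222 with the mean of its clusters, to -0.0632 with arrays centred on the genes tested and to -0.0183 without titled deficient 1, and lay between -0.0651 and 0.144 with 1 lung left out. The number of all genes called, 3390, was 1758 with the replicate number as a block, under which all 6 genes passed, and 2178 to 3134 with 1 lung left out, the lowest without titled deficient 2. Replicate numbers did not pair the samples. Of all calls, 62.4% were higher in titled adequate, against 75.8% after cyclic loess, 80.2% with arrays centred on their medians over all clusters and 32.9% over the genes tested, which moved the median of all genes by -0.108. Of the 6, the smallest difference, 0.97, is several times that shift. The cause of these moves was not tested. Signal limits Lrg1 and Serpina3n, and high spread limits Alb and Muc5b.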
